A study of Mus musculus with 18 samples.

Results

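The genes described here are 35 genes of DNA replication and S phase, taken by symbol from a list. They were matched through the mouse gene annotation to Ensembl gene identifiers in the expression tables of mouse prostates. All 35 were found among the 55469 gene identifiers of the tables, each in 1 row, and all are annotated as protein coding. The rule takes genes by symbol and uses no measured value, although the list was drawn up with earlier results of these data known. DNA replication starts at origins that are bound by the origin recognition complex, on which CDC6 and CDT1 load the MCM helicase in G1 while geminin blocks a second loading. CDC45 and the GINS proteins then turn MCM into the active helicase, the RFC loader places the PCNA sliding clamp, and polymerases copy both strands with deoxynucleotides supplied by ribonucleotide reductase and thymidylate synthase. Most of these genes are transcribed in late G1 under E2F factors, which the retinoblastoma protein holds back. In TRAMP (transgenic adenocarcinoma of mouse prostate) mice the probasin (Pb) promoter drives the SV40 T antigens in prostate epithelium, and large T antigen binds the retinoblastoma protein.

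The data were RNA-seq of 18 libraries in 6 groups of 3, made from ventral and lateral lobes of the prostate of males. WT-TRAMP (ELAC2+/+), KO-TRAMP (ELAC2-/-) and A537T-TRAMP (ELAC2A537T) mice of the strain C56NL/6N were sampled at 10 and at 30 weeks of age, and every group, the controls included, carried TRAMP +/-. ELAC2 is the endonuclease that cuts the 3′ trailer from precursor tRNAs. In KO-TRAMP mice Cre driven by the Pb promoter deletes 1 exon of Elac2 in prostate epithelium only, so stroma and immune cells keep the gene, whereas the A537T variant is homozygous in the whole body. Both mutants were set against WT-TRAMP of their own age, which asks whether loss or change of ELAC2 altered the transcripts of the replication machinery in these prostates. Libraries are named by the number in their column header: at 10 weeks WT-TRAMP has 1 to 3, A537T-TRAMP 4 to 6 and KO-TRAMP 7 to 9, and at 30 weeks WT-TRAMP has 10 to 12, A537T-TRAMP 13 to 15 and KO-TRAMP 16 to 18. The headers tie no library to a mouse, so p-values measure the spread between libraries.

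The libraries held 9380174 to 14830104 reads assigned to genes. Elac2, the targeted gene, had 318 ± 36.6 normalised counts in WT-TRAMP and 273 ± 25.01 in KO-TRAMP at 10 weeks, and 293 ± 37.3 and 256 ± 10.2 at 30 weeks (means ± SD of 3 libraries), so its transcript count overlapped between the groups and checks the labels only weakly. Over all genes, limma called 2 of 15451 at 10 weeks and 36 of 16900 at 30 weeks for KO-TRAMP, and 1 of 15438 and 0 of 16261 for A537T-TRAMP, at an adjusted p under 0.05. Prostate luminal markers were read in every library, but transcripts of the seminal vesicle, a neighbouring gland, ran from a summed normalised count of 11.7 to 1156560. A further feature of the libraries bears on the tests at 30 weeks. Among 860 genes that differed more than 4-fold between libraries 16 and 17 and reached over 200 normalised counts in 1 of them, library 18 lay between both for 99.3%, at a median of 0.61 of the way from 16 to 17 (quartiles 0.56 and 0.66). Library 12 lay between libraries 10 and 11 for 97.1% of 242 such genes, with a median position of 0.56. No other library lay between the remaining libraries of its group for more than 88.3% of such genes. Whether libraries 12 and 18 hold RNA that also went into other libraries was not tested, so the counts of members called at 30 weeks are also given without them.

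The 35 genes spanned a wide range of levels. In reads per kilobase of exon, scaled to the depth of the library (RPKM), the median over the 18 libraries ran from 1.69 for Orc1, the largest subunit of the origin recognition complex, to 60.3 for Mcm6, a helicase subunit. Pcna, the sliding clamp, followed Mcm6 at 57.0, and the MCM subunits Mcm4, Mcm7, Mcm2, Mcm5 and Mcm3 came next, between 32.2 and 20.8. Their regulators and loaders were read at lower levels, with Cdt1 at 8.47, Gmnn (geminin) at 6.07, Cdc6 at 5.01, Cdc45 at 4.10 and Mcm10 at 1.98. The range of a gene over the 18 libraries was as wide as the distance between many neighbours in this order: the highest library was a median of 3.45 times the lowest. Cdt1 had the narrowest range, 2.02-fold, and Orc6 the widest, 11.8-fold, followed by Ccne2 (cyclin E2) at 8.69-fold. The lowest value of Orc6 was in A537T-TRAMP library 5 at 10 weeks, at 5.11, and the highest in KO-TRAMP library 17 at 30 weeks, at 60.5. The lowest value of any member was 28 reads, for Gins1, and all 35 passed the filter on low values in all 4 comparisons.

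Some of these counts may include reads that could also come from another gene. Over 10% of the 31-base words of the transcripts of Mcm7, Uhrf1, Pcna and Rrm2 also occurred in transcripts of other genes, such as Pcna-ps2 for Pcna, with 26.8%, 24.2%, 23.3% and 12.0% of words shared. Exons of 13 members overlapped exons of another gene, over 84.2% of the exonic bases of Fen1 (Tmem258 and Gm10143), 67.3% of Gins2 (Gse1) and 52.5% of Chaf1a (Ubxn6). These partners lie on the opposite strand, and the quantification was strand-specific.

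The promoters of the members shared letters that the list was not built on. RefSeq promoter windows (build GRCm38.p6, 250 bases before to 50 bases after a start site) were found for 29 of the 35 genes, and were searched on both strands for E2F letters (TTTCCCGC, TTTGGCGC, TTTCGCGC, TTTGCCGC or GGCGGGAA, of which the first and last overlap in part), for CCAAT, the letters bound by NF-Y, and for TTTGAA, the cell cycle homology region (CHR) of genes of mitosis. E2F letters were in the windows of 17 of the 29 genes (58.6%), against 4.46% of 27025 genes with a window. CCAAT was in those of 18 genes (62.1%), against 41.1% of all genes, and both occurred together in 12 (41.4%), against 1.82%. The CHR letters, in contrast, were in the windows of 4 of the 29 genes (13.8%), against 20.2% of all genes. A match is a run of letters and not a measured binding site. The windows of 6 members to which the results return are printed 5′ to 3′ on the strand of the gene, with E2F and CCAAT letters in capitals. They are Orc6 (chr8:85299382-85299681, plus strand), Mcm3 (chr1:20820263-20820562, minus strand), Mcm5 (chr8:75109259-75109558, plus strand), Mcm6 (chr1:128359656-128359955, minus strand), Rrm1 (chr7:102441445-102441744, plus strand) and Tyms (chr5:30073576-30073875, minus strand).
Orc6: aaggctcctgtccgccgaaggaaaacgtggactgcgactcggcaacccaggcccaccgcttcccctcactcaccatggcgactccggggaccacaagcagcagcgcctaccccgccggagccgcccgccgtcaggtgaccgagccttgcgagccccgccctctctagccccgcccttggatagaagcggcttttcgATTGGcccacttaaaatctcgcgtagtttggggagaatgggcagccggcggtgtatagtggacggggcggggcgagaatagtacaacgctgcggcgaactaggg
Mcm3: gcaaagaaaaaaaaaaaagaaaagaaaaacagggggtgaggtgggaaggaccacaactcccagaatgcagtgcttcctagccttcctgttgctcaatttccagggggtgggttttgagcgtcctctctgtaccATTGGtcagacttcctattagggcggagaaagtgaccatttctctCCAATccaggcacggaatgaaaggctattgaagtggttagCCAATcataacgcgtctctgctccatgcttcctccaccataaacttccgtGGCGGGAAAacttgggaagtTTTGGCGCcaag
Mcm5: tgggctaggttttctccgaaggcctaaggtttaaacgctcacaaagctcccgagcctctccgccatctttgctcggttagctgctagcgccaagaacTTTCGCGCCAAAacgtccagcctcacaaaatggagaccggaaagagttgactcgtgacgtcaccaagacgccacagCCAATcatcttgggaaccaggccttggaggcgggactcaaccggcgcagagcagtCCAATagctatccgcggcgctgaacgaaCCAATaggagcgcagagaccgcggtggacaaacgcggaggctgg
Mcm6: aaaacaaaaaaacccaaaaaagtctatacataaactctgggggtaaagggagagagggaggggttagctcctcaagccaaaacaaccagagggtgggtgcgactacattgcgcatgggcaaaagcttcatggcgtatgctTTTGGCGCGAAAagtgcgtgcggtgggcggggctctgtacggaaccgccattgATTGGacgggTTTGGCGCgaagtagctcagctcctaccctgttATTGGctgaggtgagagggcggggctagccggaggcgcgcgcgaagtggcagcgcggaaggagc
Rrm1: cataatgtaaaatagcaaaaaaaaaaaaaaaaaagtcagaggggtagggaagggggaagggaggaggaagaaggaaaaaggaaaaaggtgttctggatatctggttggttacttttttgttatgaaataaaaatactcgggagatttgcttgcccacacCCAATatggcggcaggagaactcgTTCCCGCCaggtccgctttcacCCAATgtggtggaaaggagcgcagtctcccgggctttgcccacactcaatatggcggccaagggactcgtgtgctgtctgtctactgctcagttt
Tyms: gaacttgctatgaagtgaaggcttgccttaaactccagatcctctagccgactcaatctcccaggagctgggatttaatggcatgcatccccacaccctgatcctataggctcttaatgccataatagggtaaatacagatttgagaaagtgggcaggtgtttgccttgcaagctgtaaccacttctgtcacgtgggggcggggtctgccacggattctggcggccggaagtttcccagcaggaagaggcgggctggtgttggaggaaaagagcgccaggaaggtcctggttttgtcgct

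The helicase genes Mcm3, Mcm5 and Mcm6 held 3, 2 and 3 E2F matches, counted over both strands, and CCAAT 2 or 3 times. Some of these E2F matches overlap: the 2 of Mcm5 form 1 stretch, as do 2 of the 3 in Mcm3 and 2 of the 3 in Mcm6. Rrm1, the large subunit of ribonucleotide reductase, held 1 E2F match and 2 CCAAT matches. Orc6 held a single CCAAT match, read on the opposite strand as ATTGG 54 bases before the start site, and no E2F letters. Tyms (thymidylate synthase) held none of the letters in this window. No match says only that these letters are not in the window.

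No member passed an adjusted p of 0.05 by limma in any of the 4 comparisons, against 0.0129% of all genes at 10 weeks and 0.213% at 30 weeks for KO-TRAMP, and 0.00648% and 0% for A537T-TRAMP. The number of members with an unadjusted limma p under 0.05 was 0 at 10 weeks (6.64% of all genes) and 3 at 30 weeks (13.5%) for KO-TRAMP, and 1 (7.89%) and 2 (7.21%) for A537T-TRAMP. These shares of the members, 0%, 8.57%, 2.86% and 5.71%, were all below those of all genes. On the reads behind the counts, edgeR called 0 members in each comparison and DESeq2 called 0 in 3 of them and 1, Orc6, in KO-TRAMP at 30 weeks, where DESeq2 called 4.39% of all genes.

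The direction of the members as a group differed between the comparisons. The median log2 fold change of the 35 genes was 0.04 at 10 weeks and 0.32 at 30 weeks for KO-TRAMP, and -0.38 and 0.03 for A537T-TRAMP, while that of all genes tested was between -0.01 and 0.01. Higher values than in WT-TRAMP were seen for 25 and 27 of the 35 genes for KO-TRAMP at both ages and for 2 and 18 for A537T-TRAMP, against 48.9% to 50.9% of all genes. These genes move together within a library, so the count of genes in 1 direction is not a count of independent observations.

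**Figure D1:**
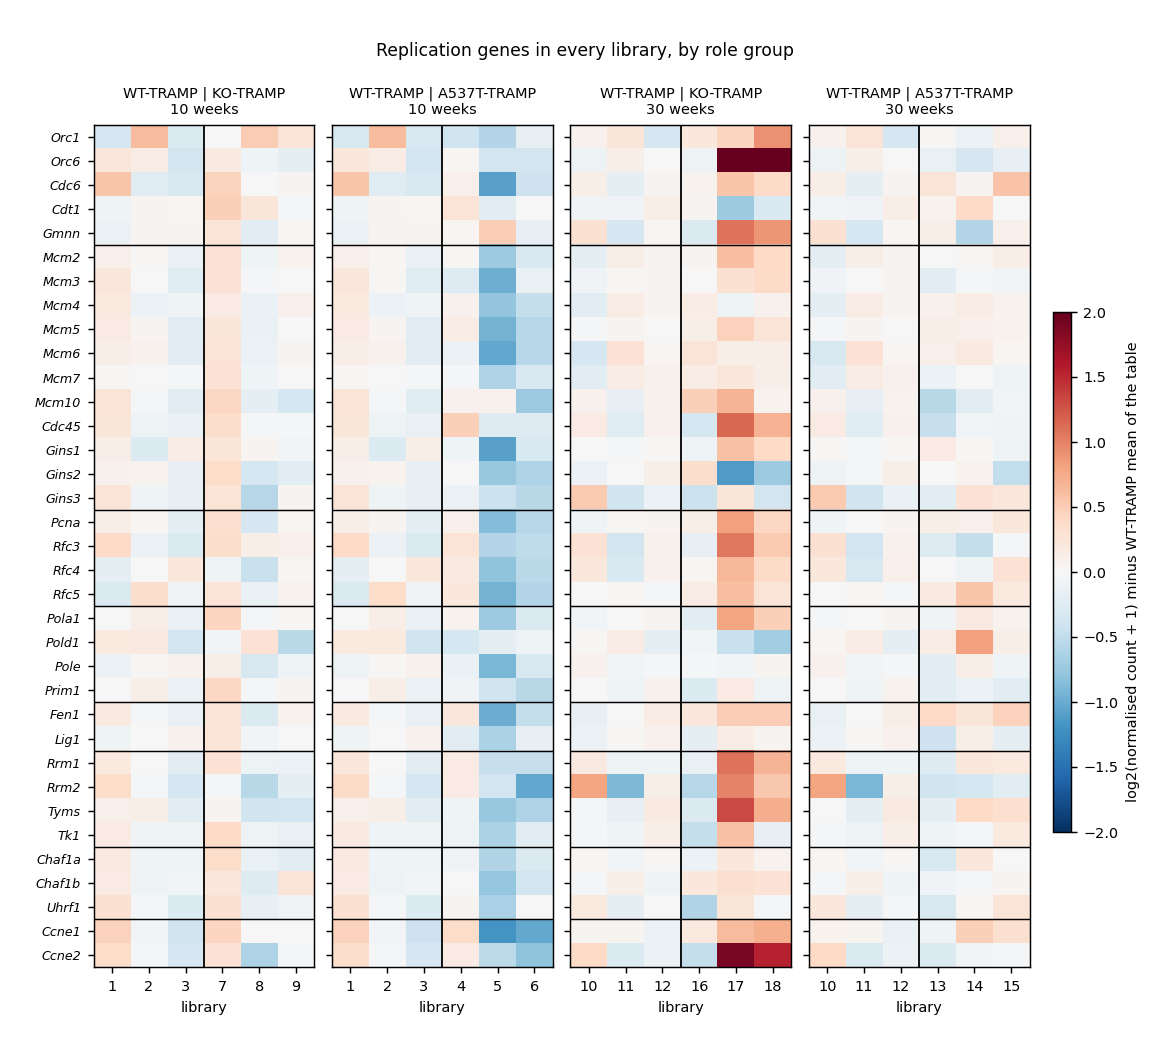
Difference of log2(normalised count + 1) from the WT-TRAMP mean of the same table for the 35 genes (rows, role groups divided by lines) in the 6 libraries of each table (columns); colours end at -2 and 2, and Orc6 in libraries 17 and 18 lies beyond the upper end. Libraries 5 and 6 are mostly blue, libraries 17 and 18 mostly red, and library 16 differs from both.

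In KO-TRAMP at 30 weeks the changes were unequal between libraries and between genes. The summed normalised count of the members was 22828, 23991 and 24029 in WT-TRAMP libraries 10, 11 and 12, and in KO-TRAMP it was 23604 in library 16, 33971 in library 17 and 29295 in library 18. Library 16 thus lay within the WT-TRAMP range and libraries 17 and 18 above it. Of the 35 genes, 28 in library 17 and 21 in library 18 were above the highest WT-TRAMP library, against 8 in library 16, and 12 genes in library 16 were below the lowest. The share of all genes outside the WT-TRAMP range was not counted for single libraries, so these counts do not set the members apart from other genes. In all 3 KO-TRAMP libraries 6 genes (17.1%), namely Mcm5, Pcna, Rfc5, Fen1, Chaf1b and Ccne1, were above every WT-TRAMP library, as were 10.8% of all genes, and 0 genes were below, against 9.48% of all genes.

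Among the origin licensing genes, Orc6, the smallest subunit of the origin recognition complex, had 241, 280.2 and 256 normalised counts in WT-TRAMP and 241, 1615 and 1157 in KO-TRAMP, in the order of libraries 16, 17 and 18. Libraries 17 and 18 were 6.23 and 4.47 times the WT-TRAMP mean, whereas library 16 was inside the WT-TRAMP range. The log2 fold change was 1.56 (SE 0.69 and adjusted p 0.38 by limma), the largest of the 35. Gmnn, which encodes the licensing inhibitor geminin, had 154, 98.8 and 129 counts in WT-TRAMP and 102, 268 and 231 in KO-TRAMP. Cdt1, the licensing factor that geminin binds, went the other way, with 308, 308 and 356 counts in WT-TRAMP and 336, 196 and 260.0 in KO-TRAMP. Libraries 17 and 18 were therefore above every WT-TRAMP library for geminin and below every one for its partner, with log2 fold changes of 0.56 (SE 0.40) and -0.32 (SE 0.22). Cdc6 and Orc1 had log2 fold changes of 0.33 and 0.52.

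Among the helicase genes, those of the MCM ring had smaller values than Orc6. Mcm5 had 977, 1046 and 1001 counts in WT-TRAMP and 1089.6, 1386 and 1202 in KO-TRAMP, without overlap, and a log2 fold change of 0.28 (SE 0.12 and adjusted p 0.377 by limma). Of its partners in the MCM ring, Mcm2 and Mcm3 had log2 fold changes of 0.35 and 0.23, and Mcm4, Mcm6 and Mcm7 of 0.04, 0.17 and 0.16. Cdc45, which joins the ring to form the active helicase, had 219, 166 and 209 counts in WT-TRAMP and 154, 437 and 319 in KO-TRAMP. The GINS genes did not follow a common direction: Gins1 had a log2 fold change of 0.30, Gins3 of -0.19 and Gins2 of -0.51 (SE 0.38). Gins2 had 237, 254 and 278 counts in WT-TRAMP and 327, 116 and 154 in KO-TRAMP, so it was lowest in the same 2 libraries in which Orc6 was highest, and the protein GINS2 works in 1 complex with GINS1 and GINS3.

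All 4 genes of the clamp and clamp loader had positive values. Pcna had 1446, 1536 and 1578 counts in WT-TRAMP and 1644, 2679 and 2018 in KO-TRAMP, without overlap, and a log2 fold change of 0.45 (SE 0.19 and adjusted p 0.369 by limma). The loader subunits Rfc3, Rfc4 and Rfc5 had log2 fold changes of 0.48, 0.36 and 0.34. The catalytic subunits of the polymerases diverged. Pola1, of the polymerase alpha that extends primers, had 1216, 1256 and 1309.7 counts in WT-TRAMP and 1091, 2168 and 1762 in KO-TRAMP. Pold1, the catalytic subunit of polymerase delta, had 482, 527 and 418 counts in WT-TRAMP and 458, 346 and 291 in KO-TRAMP, with a log2 fold change of -0.40 (SE 0.20 and adjusted p 0.401 by limma), and Pole, that of polymerase epsilon on the leading strand, was nearly level at -0.02 (SE 0.09).

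Fen1, the nuclease that removes flaps from Okazaki fragments, had the smallest unadjusted limma p of the members, 0.0257. It had 388, 437 and 479 counts in WT-TRAMP and 506, 609 and 609 in KO-TRAMP, without overlap, a log2 fold change of 0.40 (SE 0.14) and a limma adjusted p of 0.345. Lig1, the ligase that then seals the fragments, was level, with a log2 fold change of 0.01 (SE 0.13). In the nucleotide supply group Rrm1 had 1478, 1211 and 1229 counts in WT-TRAMP and 1176, 2773 and 2088 in KO-TRAMP (log2 fold change 0.54, SE 0.31, limma adjusted p 0.44). Tyms, which makes thymidylate, had 467, 419 and 536.9 counts in WT-TRAMP and 388, 1180.0 and 782 in KO-TRAMP, with a log2 fold change of 0.59 (SE 0.40). Both were below the lowest WT-TRAMP library in library 16 and above every WT-TRAMP library in 17 and 18. Rrm2, the small subunit of the reductase, varied too widely among the WT-TRAMP libraries (669, 207 and 423 counts) to set its values of 261, 777 and 568 apart.

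Chaf1b, a subunit of the chromatin assembly factor that places histones behind the fork, had 395, 439 and 382 counts in WT-TRAMP and 468, 507 and 495 in KO-TRAMP, without overlap (log2 fold change 0.28, SE 0.11, limma adjusted p 0.368). Library 16 lay close to libraries 17 and 18 for Chaf1b. Its partner Chaf1a had a log2 fold change of 0.05, and Uhrf1, which guides maintenance methylation, of -0.13. Both cyclins E, which activate CDK2 at the start of S phase, were higher on average. Ccne1 had 105, 105 and 93.5 counts in WT-TRAMP and 115, 157 and 166 in KO-TRAMP (log2 fold change 0.51, SE 0.20, limma adjusted p 0.364). Ccne2 had 329, 205 and 230.2 counts in WT-TRAMP and 179, 934 and 728 in KO-TRAMP (log2 fold change 0.99, SE 0.63, limma adjusted p 0.466), so that library 16 was the lowest and libraries 17 and 18 the highest of the table.

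**Figure D2:**
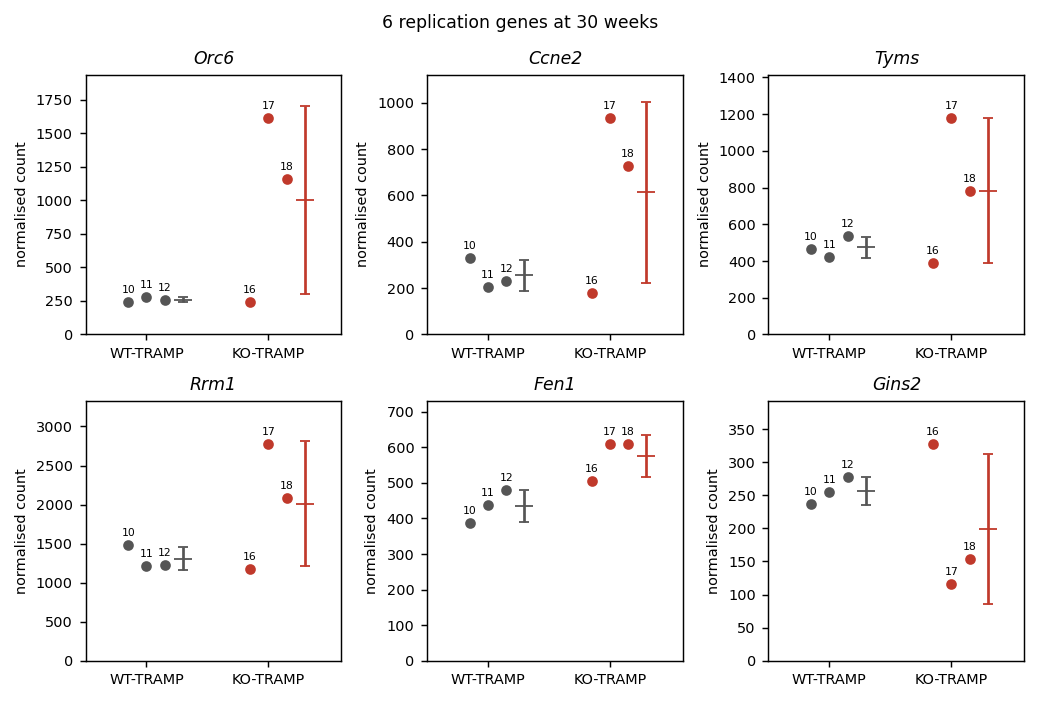
Normalised counts (linear axes from 0) of 6 members in the 3 WT-TRAMP and 3 KO-TRAMP libraries at 30 weeks; points are libraries with their numbers, and bars are means ± SD. Orc6, Ccne2, Tyms and Rrm1 are high in libraries 17 and 18 and not in 16, Gins2 shows the opposite order, and Fen1 is higher in all 3.

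The tests in this comparison turned on library 16. Without it limma called 10 members, while it called 18.1% of all genes. These were Orc6 (log2 fold change 2.40, limma adjusted p 0.00614), Ccne2 (1.72), Tyms (1.02), Gmnn (0.98), Cdc45 (0.92), Rrm1 (0.89), Ccne1 (0.67), Pola1 (0.63) and Pcna (0.61), which were higher, and Gins2, which was lower by a log2 value of -0.94. The 10 genes are 28.6% of the members. The KO-TRAMP group then consists of libraries 17 and 18. Since library 18 lay between 16 and 17, the spread between libraries 17 and 18 may not be that between separate mice. Without libraries 12 and 18, an alternative chosen after seeing the data, limma called 0 members and 0 of 16889 genes. At an unadjusted limma p under 0.05 there were 0 members and 343 of all genes. The median log2 fold change of the members was then 0.27 and that of Orc6 was 1.262.

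Marker lists also differed between these libraries, though not all in the same order. The summed normalised count of 10 neuroendocrine markers was 3310.0, 339 and 1734 in WT-TRAMP libraries 10, 11 and 12, and in KO-TRAMP 330.3 in library 16, 17518 in library 17 and 11086 in library 18. In libraries 17 and 18 0 of the 10 were at 0, against 5 in libraries 11 and 16, and Chga (chromogranin A) ran, within KO-TRAMP, from 1.03 in library 16 to 6426 in library 17. The 15 mitosis markers, Mki67 and Top2a among them, summed to 18040.5, 8090.2 and 12745 in WT-TRAMP and to 7389, 37634 and 25622 in KO-TRAMP, and all 15 had positive log2 fold changes, with a median of 0.81 and 0 called. The 10 fibroblast and smooth muscle markers summed to 25622, 16325 and 21206 in WT-TRAMP and to 28122, 43898 and 37897 in KO-TRAMP. Of these 10, 8 had positive and 2 negative log2 fold changes, and 6 were higher without overlap, against 10.8% of all genes. At an adjusted p under 0.05 limma called 3, all higher, against 0.213% of all genes. The 4 basal epithelium markers summed to 360.3, 385 and 394 in WT-TRAMP and to 319, 2323 and 1630.2 in KO-TRAMP. Of these 4, 3 had positive log2 fold changes and 1 a negative one (-1.33), which was lower without overlap, as were 9.48% of all genes. Of the 10 luminal markers 6 had negative log2 fold changes, with a median of -0.66 over the 10. The mean log2 level of the 10 was lowest in library 17 (10.61) and next lowest in library 18 (10.95), against 11.25 to 11.51 in the other libraries of the table. Their summed counts, 36167, 32476 and 33424 in libraries 16, 17 and 18, lay within the WT-TRAMP range of 30292.5 to 41509.5. The 12 leukocyte markers had a higher sum in all 3 KO-TRAMP libraries (2437 to 3486) than in WT-TRAMP (1239 to 1469). Of the 8 that were tested, 5 had positive and 3 negative log2 fold changes, and limma called 1, which was higher. The mean log2 level of the 12 overlapped between the groups, with 5.38, 4.80 and 5.17 in libraries 16, 17 and 18 and 4.97 to 5.26 in WT-TRAMP. The 8 seminal vesicle markers summed to 496832, 12.5 and 220648 in WT-TRAMP and to 30706.5, 75.1 and 11546 in KO-TRAMP. Of the 8 skeletal muscle and adipose markers 3 had positive and 5 negative log2 fold changes, and limma called 2, 1 higher and 1 lower. The part of these cells in the values of the replication genes was not tested, and in bulk RNA fewer cells of a type and less RNA per cell cannot be told apart.

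**Figure D3:**
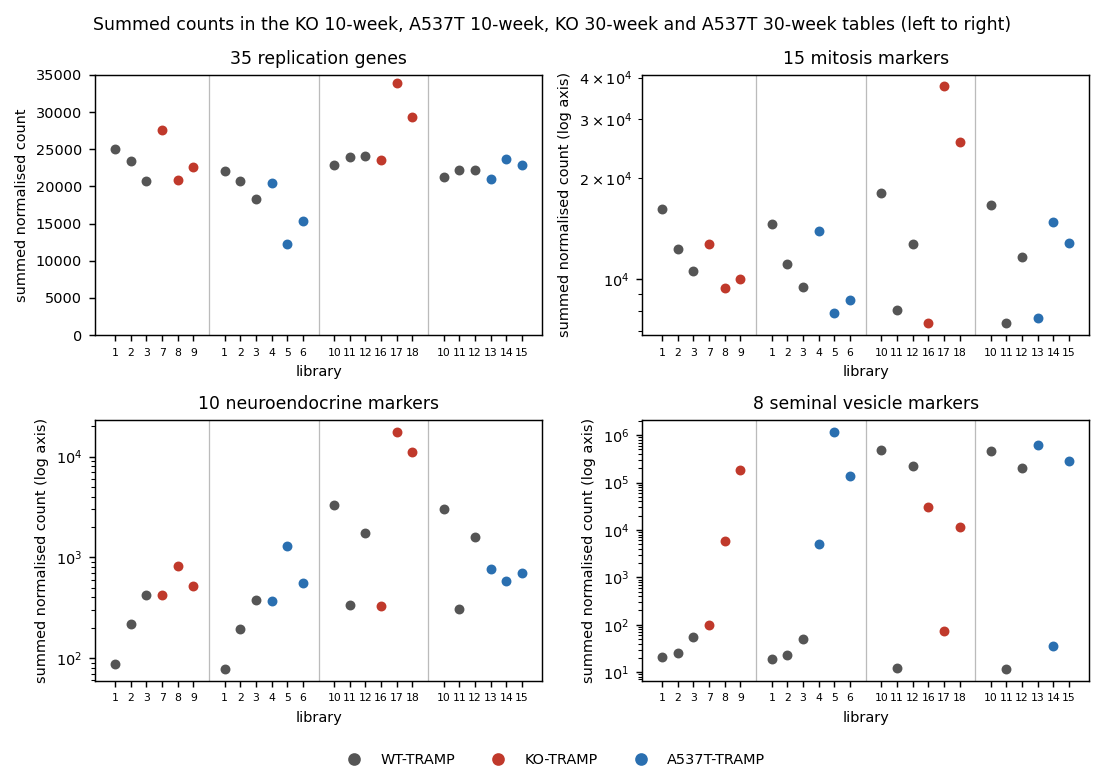
Summed normalised counts per library of the 35 replication genes (linear axis from 0) and of the 15 mitosis, 10 neuroendocrine and 8 seminal vesicle markers (log axes), in the 4 tables from left to right; each WT-TRAMP library appears in the tables of both lines. Within their table, libraries 17 and 18 are the highest for replication, mitosis and neuroendocrine genes. Library 5 has, within its table, the lowest sum of replication genes and the highest of seminal vesicle genes.

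In A537T-TRAMP at 10 weeks the members were lower on average. Their summed normalised count was 22139, 20732 and 18251 in WT-TRAMP libraries 1, 2 and 3 and 20481, 12217 and 15300.0 in A537T-TRAMP libraries 4, 5 and 6. Library 5 was below the lowest WT-TRAMP library for 31 of the 35 genes and library 6 for 29, and both were for 27, whereas library 4 was within the WT-TRAMP range for 27. The share of all genes outside that range was not counted for single libraries, so these counts do not set the members apart from other genes. Only Pole, Lig1 and Tk1 (8.57% of the members) were below every WT-TRAMP library in all 3, against 6.53% of all genes, and 0 were above, against 6.92%.

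The values lay in a narrow band across the role groups, unlike those of KO-TRAMP at 30 weeks. The medians of the groups ran from -0.23 for origin licensing to -0.50 for the cyclins E, and all 11 helicase genes were negative. Mcm6 had 3086, 2997 and 2436 counts in WT-TRAMP and 2603, 1369 and 1909 in A537T-TRAMP, with a log2 fold change of -0.58 (SE 0.24) and the smallest unadjusted limma p of the members, 0.0444 (adjusted p 0.6). Gins1, of the GINS complex, had 73.1, 55.3 and 73.7 counts in WT-TRAMP and 62.7, 30.9 and 53.9 in A537T-TRAMP. Among the licensing genes Cdc6 had 431, 246 and 234 counts in WT-TRAMP and 313, 137 and 218 in A537T-TRAMP, and Cdt1 and Gmnn were the only members with a positive log2 fold change, 0.02 and 0.12.

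The clamp gene Pcna had 1517, 1437 and 1228 counts in WT-TRAMP and 1485, 764 and 934 in A537T-TRAMP (log2 fold change -0.45, SE 0.24, limma adjusted p 0.604). Pole had 758, 832 and 866 counts in WT-TRAMP and 746, 432 and 651 in A537T-TRAMP, where the groups were apart by a small step only (log2 fold change -0.46, SE 0.21, limma adjusted p 0.6). Lig1 had 666, 701 and 746 counts in WT-TRAMP and 601, 454 and 629 in A537T-TRAMP, also without overlap. In these polymerase and ligase genes library 5 was again the lowest. Tyms had 505, 509 and 400.0 counts in WT-TRAMP and 443, 277 and 304 in A537T-TRAMP (log2 fold change -0.49, SE 0.21, limma adjusted p 0.6). Chaf1a had 661, 552 and 551 counts in WT-TRAMP and 558, 387 and 478 in A537T-TRAMP. Ccne1 had 159, 111 and 85.9 counts in WT-TRAMP and 148, 49.7 and 56.2 in A537T-TRAMP, with the most negative log2 fold change of the members, -0.61 (SE 0.45 and adjusted p 0.646 by limma). Its libraries 5 and 6 were below and library 4 inside the WT-TRAMP range.

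**Figure D4:**
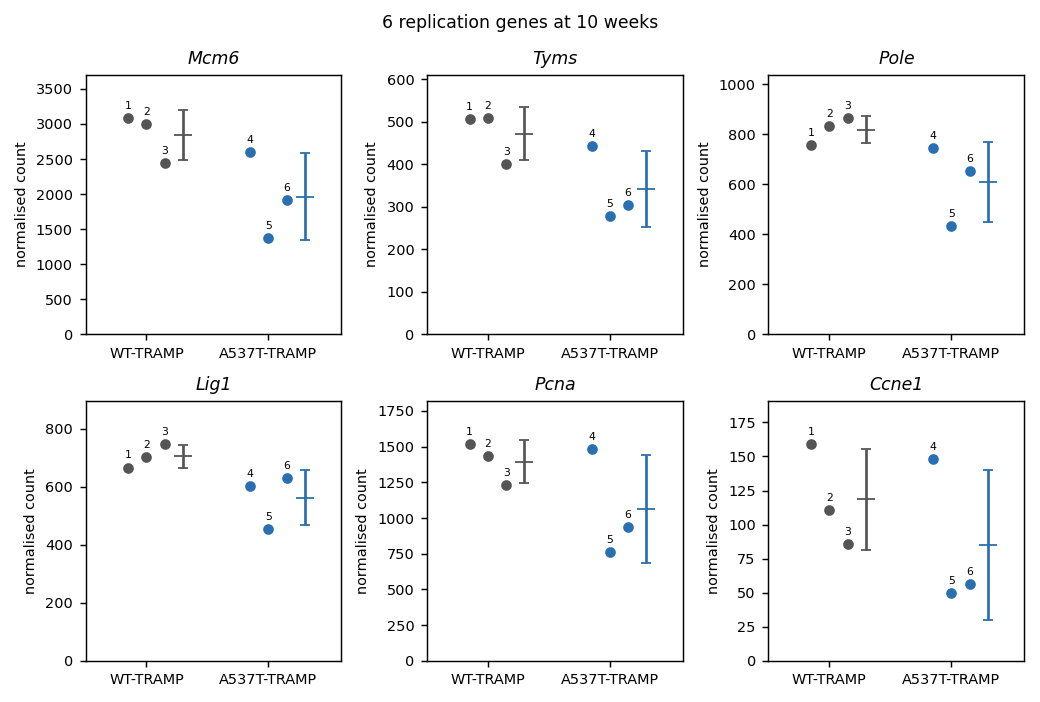
Normalised counts (linear axes from 0) of 6 members in the 3 WT-TRAMP and 3 A537T-TRAMP libraries at 10 weeks; points are libraries with their numbers, and bars are means ± SD. Library 5 is the lowest of the 6 libraries in each panel and library 4 lies at or near the WT-TRAMP values.

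Without library 4 the median of the members was -0.55 and 20 of them had an unadjusted limma p under 0.05, as did 22.3% of all genes, with 0 called, and without library 5 the median was -0.19. Transcripts of other tissue moved with these libraries. The 8 seminal vesicle markers summed to 19.3, 23.0 and 49.5 normalised counts in WT-TRAMP and to 5025, 1156560 and 135158 in A537T-TRAMP libraries 4, 5 and 6, with 0 of the 8 at 0 in the latter. The 10 fibroblast and smooth muscle markers summed to 7327 to 9689 in WT-TRAMP and to 12944, 29316 and 19076 in A537T-TRAMP, and the 10 luminal markers to 50053 to 60869 and to 62375, 26323 and 44786. The mean log2 level of the luminal markers was 11.18 to 11.74 in WT-TRAMP and 11.91, 11.09 and 11.76 in A537T-TRAMP. By that measure only library 5 was below WT-TRAMP. The 15 mitosis markers all had negative log2 fold changes, with a median of -0.29 and 0 called, and summed to 14551, 11110 and 9479 in WT-TRAMP and to 13873, 7896 and 8654 in A537T-TRAMP. The 4 basal markers all had positive values, with a median of 0.63, and summed to 863, 585 and 363 in WT-TRAMP and to 505, 944 and 1907 in A537T-TRAMP. The order of libraries 4, 6 and 5 was the same for the members, from high to low, as for these stromal and seminal vesicle sums from low to high. Their part in the values of the replication genes was not tested.

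**Figure D5:**
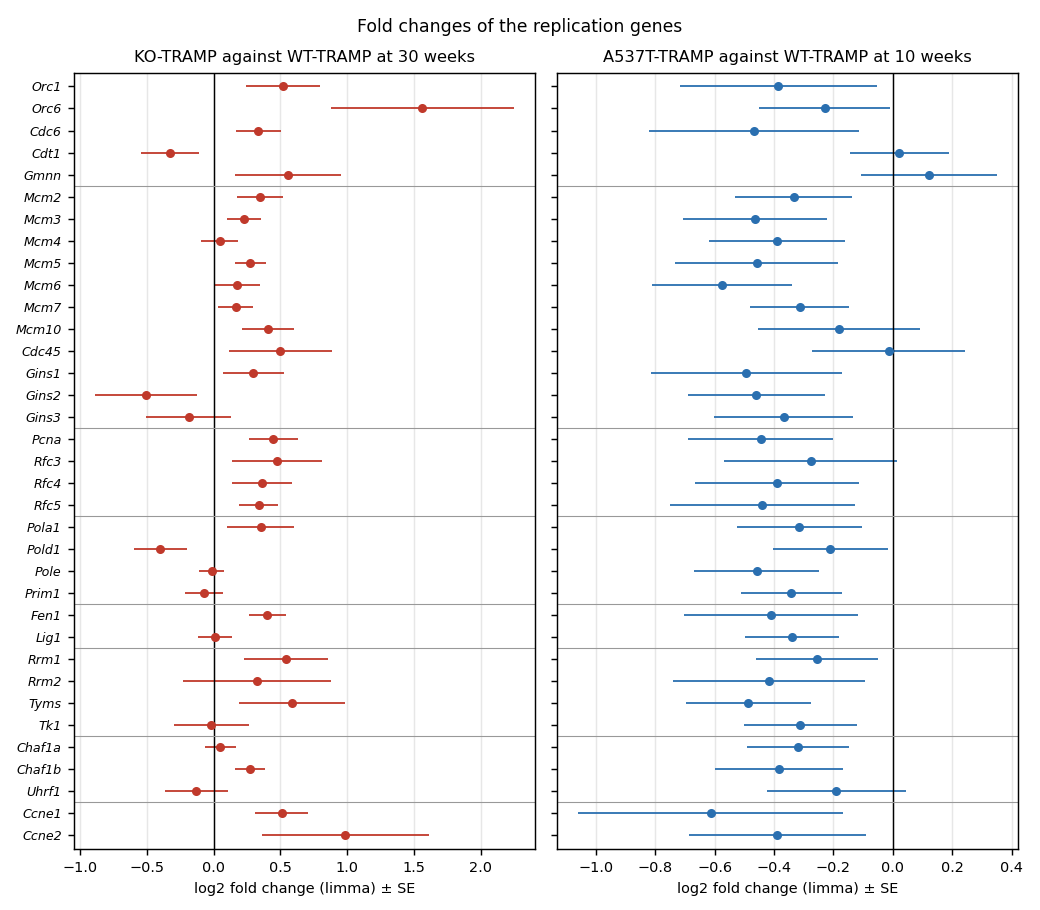
Log2 fold change (limma, with SE as bars) of the 35 genes in KO-TRAMP at 30 weeks and A537T-TRAMP at 10 weeks, ordered by role; the axes differ in range. In KO-TRAMP the values run from -0.51 (Gins2) to 1.56 (Orc6), and in A537T-TRAMP from -0.61 (Ccne1) to 0.12 (Gmnn).

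In KO-TRAMP at 10 weeks differences were within the spread of the libraries. The log2 fold changes ran from -0.27 to 0.26, and 0 of the 35 genes were without overlap in either direction, against 5.77% of all genes higher and 6.26% lower. Rrm2 had 555, 417 and 339 counts in WT-TRAMP and 416, 289.9 and 375 in KO-TRAMP (log2 fold change -0.27, SE 0.21, limma adjusted p 0.852). Orc1 had 51.6, 101 and 52.9 counts in WT-TRAMP and 65.6, 93.0 and 78.1 in KO-TRAMP. Tyms had 575, 579.9 and 458 counts in WT-TRAMP and 553, 407 and 409.6 in KO-TRAMP (log2 fold change -0.24, SE 0.16, limma adjusted p 0.822). Library 7 had the highest value of the table for 22 of the 35 genes and libraries 3 and 8 the lowest for 13 each, which was not counted over all genes. The small positive median of 0.04 rested on these libraries: it was -0.07, with 7 genes higher, without library 7 and -0.03 without library 3. In the same libraries 14 of 15 mitosis markers had negative values, with a median log2 fold change of -0.34 and 0 called, and all 8 seminal vesicle markers had positive values, with a median of 4.77. Their part in the values of the replication genes was not tested.

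In A537T-TRAMP at 30 weeks the sum of the members, 21269, 22185 and 22238 in WT-TRAMP and 20957, 23657 and 22856 in A537T-TRAMP, overlapped between the groups. Mcm5, Pcna, Rfc5 and Fen1 (11.4%) were above every WT-TRAMP library in all 3 A537T-TRAMP libraries, against 7.36% of all genes, and Orc6 and Prim1 (5.71%) were below, against 6.03%. Fen1 had 369, 412 and 450.2 counts in WT-TRAMP and 537.5, 482 and 563 in A537T-TRAMP, a log2 fold change of 0.36 (SE 0.12) and an unadjusted limma p of 0.0177 (adjusted p 0.666). Pold1 had 435, 472 and 374 counts in WT-TRAMP and 474, 752 and 459.5 in A537T-TRAMP (log2 fold change 0.36, SE 0.21, limma adjusted p 0.74). Rrm2 had 625, 192 and 391 counts in WT-TRAMP and 274, 284 and 312 in A537T-TRAMP. Its mean was lower by a log2 value of -0.32 (SE 0.38), which depended on library 10. Orc6, the gene that stood out in KO-TRAMP, had 220.3, 256 and 234 counts in WT-TRAMP and 214, 187 and 210.3 in A537T-TRAMP (log2 fold change -0.21, SE 0.12, limma adjusted p 0.749). Without library 12 limma called 0 of the 35 genes and 0 of all 16224 genes. At an unadjusted limma p under 0.05 there were 1 member and 595 of all genes, and the median of the members was 0.02. With all libraries edgeR called 0 of the 35 genes as well. Of the 10 fibroblast and smooth muscle markers 9 had positive log2 fold changes, with a median of 0.80. Negative values were seen for 8 of the 9 neuroendocrine markers tested (median -2.04) and 4 of the 6 skeletal muscle and adipose markers tested (median -4.07). The median of the 15 mitosis markers was 0.08. In each of these lists 0 were called. Their part in the values of the replication genes was not tested.

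The effects at both ages were compared by an interaction term. In KO-TRAMP 0 of the 35 members passed an adjusted p of 0.05 by limma (0% of all genes) and 0 had an unadjusted p under 0.05, and edgeR called 0. The difference between the effect at 30 and that at 10 weeks was largest for Orc6, a log2 value of 1.596 (SE 0.76 and adjusted p 0.392 by limma), and most negative for Cdt1, -0.54 (SE 0.27 and adjusted p 0.408 by limma). Without library 16 limma called 4 members, Orc6 (2.43), Ccne2 (1.84), Tyms (1.27) and Rrm1 (0.86), and 11.8% of all genes. In A537T-TRAMP limma and edgeR called 0 members (0% of all genes by limma), and 3, Tyms, Fen1 and Mcm6, had an unadjusted limma p under 0.05, 8.57% of the members against 6.36% of all genes. Their differences were 0.66 (SE 0.29), 0.77 (SE 0.34) and 0.68 (SE 0.30) on the log2 scale. The difference was positive for 32 of the 35 genes, with a median of 0.37 against 0.01 for all genes, and leaving out library 5 gave a median of 0.18, library 4 one of 0.54.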

How the data were processed

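RNA-seq of 18 libraries was analysed from 4 deposited tables, each with 3 WT-TRAMP and 3 mutant libraries of 1 age. The submitters' processing notes name Trim Galore 0.4.1, cutadapt 1.18, STAR 2.7.3a, Salmon and DESeq2 1.26. Salmon was run with a stranded library type and with corrections for sequence and GC bias, per the study's methods, so that reads shared by similar transcripts were assigned by estimation. The deposited values are a signal that the authors made from estimated gene counts by dividing them by a size factor of each library within a table, so levels were compared within tables. The factor was undone from the step of the values, and 100% of the values then came out as whole reads within a tolerance of 0.0001. The WT-TRAMP columns of both tables of an age hold different recovered reads. They were identical for 30.9% (library 1) to 37.6% (library 10) of genes, and those of members differed by up to 9.28%. The headers carry no replicate number, and groups were read from the tables and the column numbers shared between them.

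Genes with a mean of at least 10 normalised counts over the 6 libraries of a table were tested on log2(normalised count + 1) with limma 3.58.1 in R 4.3.3 (moderated, with trend), Benjamini-Hochberg adjusted over all genes tested, at a threshold of 0.05. A fold change on this scale understates that of low genes. The difference between ages was an interaction term over 12 libraries. On the recovered reads, edgeR 4.0.16 (quasi-likelihood) called 0 genes for KO-TRAMP at 10 weeks, 15 for KO-TRAMP at 30 weeks and 0 for A537T-TRAMP at either age, and DESeq2 1.42.0 called 81, 793, 178 (10 weeks) and 158 (30 weeks) in that order. With 3 libraries against 3 the smallest exact permutation p is 0.1. The 4 tables of the authors' own comparisons (fold changes and p-values) were not used.

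The members and the marker lists were chosen with earlier results of these data known. All members may be named; values in every library are given for members past the threshold, for the member of each role group with the smallest p in either KO-TRAMP at 30 weeks or A537T-TRAMP at 10 weeks, and for the 3 with the largest change in each comparison, while those of further members (such as Gmnn, Cdt1, Cdc45 and Pola1) were added after their values were seen. The printed promoters were also chosen after the values were seen. Levels per length used the summed exon length of the annotation and the recovered reads, with those of WT-TRAMP from the KO-TRAMP tables, so they do not carry the size factor of a table. The recovered reads themselves still depend on the table.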

Additional observations from a re-analysis of the deposited data

How the results depend on the processing

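No paired analysis was possible because the column headers carry no replicate number. Alternatives were counted for 49 results of named members and not for all members. In KO-TRAMP at 10 weeks, for example, 25 of the 35 members were higher, but 7 without library 7. Of the 657 values under alternatives of the 49 results, 639 kept their direction and side of the threshold, 11 passed the threshold and 7 changed sign. The sign changes were those of Rrm2 in A537T-TRAMP at 30 weeks (-0.77 to 0.078 over single libraries left out, the latter without library 10), of Orc1 in the KO-TRAMP age interaction (-0.054, without library 2, to 0.43 over single libraries left out, and -0.11 without libraries 12 and 18, an alternative chosen after seeing the data) and of Rrm2 in the A537T-TRAMP age interaction (-0.11 with edgeR, and -0.35, without library 11, to 0.50, without library 10, also -0.09 without library 1 and -0.21 without library 6). Counts over all genes depended on the tool: DESeq2 called 81 and edgeR 0 for KO-TRAMP at 10 weeks, 793 and 15 for KO-TRAMP at 30 weeks, 178 and 0 for A537T-TRAMP at 10 weeks, and DESeq2 158 for A537T-TRAMP at 30 weeks. In KO-TRAMP at 30 weeks scaling by total reads gave 61, leaving out libraries 12 and 18 gave 0, and DESeq2 called 1 member. The KO-TRAMP interaction had 1 gene called without the filter and 1 with a pseudocount of 5. Leaving out 1 library at a time gave 1 to 9 genes in KO-TRAMP (9 without library 3) and 0 to 65 in A537T-TRAMP at 10 weeks (65 without library 4), 0 to 3064 in KO-TRAMP (3064 without library 16) and 0 to 145 in A537T-TRAMP at 30 weeks (145 without library 11), 0 to 1944 in the KO-TRAMP interaction (1944 without library 16, 16 without library 3) and 0 to 20 in that of A537T-TRAMP (20 without library 11). Of the members it gave 0 to 10 in KO-TRAMP at 30 weeks and 0 to 4 in its interaction, both highest without library 16. The median log2 fold change of the members ran from -0.07 to 0.13 in KO-TRAMP and from -0.55 to -0.19 in A537T-TRAMP at 10 weeks, and from 0.19 to 0.43 and from -0.04 to 0.09 at 30 weeks. The cause of these changes was not tested.

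With 3 libraries a group, of which 12 and 18 lay between the others, no member reached the limma threshold, which does not show that the members did not differ. The lowest member had 28 reads in a library, so counting error bears on Gins1 and Orc1 most.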

Other observations

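A further 49 genes of DNA replication, such as the subunits that complete the origin recognition complex, the polymerases and RPA, were measured beside the 35. In KO-TRAMP at 30 weeks 39 of the 49 had positive log2 fold changes, with a median of 0.17, and 0 passed an adjusted p of 0.05 by limma, with 3 at an unadjusted p under 0.05 (6.12%, against 13.5% of all genes). Gins4, the fourth subunit of the GINS complex, had 224, 257 and 222 normalised counts in WT-TRAMP and 308, 302 and 302 in KO-TRAMP, without overlap, and a log2 fold change of 0.38 (SE 0.12 and adjusted p 0.338 by limma). Gins4 thus lay above every WT-TRAMP library in all 3 KO-TRAMP libraries, whereas its partner Gins2 lay below in libraries 17 and 18. Rnaseh2a, the catalytic subunit of the RNase H2 that removes ribonucleotides from DNA, had 271, 372 and 328 counts in WT-TRAMP and 397, 1423 and 947 in KO-TRAMP (log2 fold change 1.34, SE 0.46, limma adjusted p 0.345). Dnmt1, the maintenance DNA methyltransferase, had 2357, 2317 and 2347 counts in WT-TRAMP and 2449.7, 3461 and 3152 in KO-TRAMP. Dut, which removes dUTP from the nucleotide pool, had 425, 346 and 327 counts in WT-TRAMP and 397, 801 and 584 in KO-TRAMP. For all of Rnaseh2a, Dnmt1 and Dut, libraries 17 and 18 were the highest of the table, as for Orc6.

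In A537T-TRAMP at 10 weeks 41 of the 49 genes had negative values, with a median of -0.25, and 0 passed limma's threshold, with 3 at an unadjusted p under 0.05 (6.12%, against 7.89% of all genes). In the remaining comparisons the median was 0.02 (KO-TRAMP, 10 weeks) and -0.01 (A537T-TRAMP, 30 weeks).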
